A study of Mus musculus with 4 samples.

Results

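Small nuclear RNAs (snRNAs), small nucleolar RNAs (snoRNAs) and small Cajal body RNAs (scaRNAs) were examined in RNA sequencing data from primary neural cells of mouse brain. Members were chosen by their annotated gene type and by measured level: every gene of these types with at least 1 TPM (transcript level scaled by gene length and by the library total) in at least 1 of the 4 libraries. This selected 180 of the 2943 genes of these types and of the 55487 genes listed. They comprised 133 snoRNA, 37 snRNA and 10 scaRNA genes. Because the level itself was the criterion, a gene that was near 0 in most libraries entered only through the library where it was high, and differences between libraries are given as a description. The gene just above the limit was Gm26244, an snRNA, with a highest TPM of 1.01, and the one just below was Snora15, with 0.983.

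The cells were neural stem cell cultures from mice with floxed alleles, and 1 library was made per group. The control was Tut1f/f cells given empty lipid nanoparticles (LNP). Cells with the same Tut1f/f genotype that received Cre-LNP were labelled Tut1 KO, p53f/f cells that received Cre-LNP were labelled P53 KO (Trp53 KO here), and Tut1f/f;p53f/f cells that received Cre-LNP were labelled Tut1 and P53 KO (double KO here). Cre was given as mRNA in the nanoparticles for 3 days, and the control received no Cre. The control was of the Tut1f/f genotype only. Gene deletion and the Cre treatment therefore cannot be told apart in any comparison with the control, and for Trp53 KO and double KO the floxed genotype differed as well. With 1 library per group there was no replicate, hence no test, error or p-value for any difference.

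Most snRNAs are parts of the spliceosome, which removes introns from pre-mRNA. U6 pairs with the 5′ splice site and lies at the catalytic centre. It is made by RNA polymerase III and ends in a run of uridines, which TUT1 extends and USB1 trims. C/D box snoRNAs guide 2′-O-methylation and H/ACA box snoRNAs guide pseudouridylation, mostly of ribosomal RNA, while scaRNAs guide the same modifications on snRNAs in Cajal bodies. In mammals most snoRNAs are cut from the introns of host genes, many of which encode ribosomal proteins. None of these mature RNAs normally carries a poly(A) tail, and the labels name an mRNA kit for the libraries.

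The sequences that follow, read from the GENCODE M21 transcripts (GRCm38), belong to snoRNAs with high levels and to some that differed most between libraries. Capitals mark the C box near the 5′ end (found as TGATG or TGACG and printed with the next base) and the D box near the 3′ end (CTGA) of C/D box snoRNAs, or the ACA letters near the 3′ end of H/ACA box snoRNAs.
Gm50452: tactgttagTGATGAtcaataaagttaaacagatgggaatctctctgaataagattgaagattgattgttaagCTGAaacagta
Gm22357: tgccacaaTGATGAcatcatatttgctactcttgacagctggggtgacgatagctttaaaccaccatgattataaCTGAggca
Snord80: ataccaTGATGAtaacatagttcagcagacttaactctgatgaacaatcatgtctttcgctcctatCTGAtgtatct
Gm25789: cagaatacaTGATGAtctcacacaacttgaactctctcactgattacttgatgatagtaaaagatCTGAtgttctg
Snord104: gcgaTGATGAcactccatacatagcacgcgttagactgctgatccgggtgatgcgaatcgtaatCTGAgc
Snord100: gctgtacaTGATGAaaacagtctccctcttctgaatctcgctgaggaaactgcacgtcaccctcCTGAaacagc
Gm24452: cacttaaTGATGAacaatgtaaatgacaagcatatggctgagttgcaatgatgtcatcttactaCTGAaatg
Gm22879: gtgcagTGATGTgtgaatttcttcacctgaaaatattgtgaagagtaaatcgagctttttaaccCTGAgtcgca
Gm24134: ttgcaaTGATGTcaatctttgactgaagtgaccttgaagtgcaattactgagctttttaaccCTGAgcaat
Gm22579: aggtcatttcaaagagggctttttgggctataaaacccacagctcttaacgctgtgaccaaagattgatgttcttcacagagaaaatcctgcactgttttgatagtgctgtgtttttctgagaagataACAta
Snora33: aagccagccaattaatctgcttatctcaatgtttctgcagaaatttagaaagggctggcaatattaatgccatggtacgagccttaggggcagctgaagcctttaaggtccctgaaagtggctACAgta
The letters of both C/D boxes were found, in these windows on the transcript strand, in 24.2% of the 1454 listed snoRNA entries of up to 150 bases and in 0% of the 1169 snRNA entries of that length. The ACA letters were found in 59.1% of the 1049 snoRNA entries of at least 100 bases and in 1.76% of the 1190 such snRNA entries.

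Tut1 and Trp53 were read first as a check of the labels. Tut1 measured 12.2 TPM in the control, 29.8 in the library labelled Tut1 KO, 12.5 in Trp53 KO and 13.7 in the library labelled double KO. The whole-gene level of Tut1 was thus not lower in either library labelled as a Tut1 knockout, and TPM over the gene cannot show whether the floxed part was deleted. Trp53 measured 119.9 and 100.4 TPM in the control and the library labelled Tut1 KO, and 39.7 and 41.9 in the libraries labelled Trp53 KO and double KO. Xist, the RNA of the inactive X chromosome, was at 188 TPM in the library labelled Tut1 KO, at 204 in Trp53 KO, and at 0.00969 and 0.00895 in the control and the library labelled double KO, while the Y-linked gene Ddx3y was at 0 in the first pair and at 24.4 and 25.7 in the second. The sex of the cells and the genotype cannot be told apart in a comparison that crosses this split, as all comparisons here do except that of the library labelled double KO with control. All 10 neural stem cell markers were above 1 TPM in some library, with Sox2 at 293 to 385 TPM. All 5 microglia, 6 endothelial and mural and 5 fibroblast markers stayed below 1 TPM in every library. Olig2, an oligodendrocyte lineage factor, was at 530 to 619 TPM, and summed neuron markers ranged from 166 TPM in the library labelled Tut1 KO to 241 in the control. Map2 alone made up most of these sums, at 141 and 208 TPM in that order. Snap25 was also lower in the library labelled Tut1 KO (3.38 against 9.65 TPM). Syt1 was level at 2.72 TPM, and only Dcx was higher (3.13 against 2.77). The sums are therefore not read as a difference in neuron content.

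Of the 2943 listed genes, 2325 (79.0%) were at 0 in all 4 libraries, with 83.6% of snRNA, 75.8% of snoRNA and 47.1% of scaRNA entries at 0. Among the 180 members, 94 had a TPM of at least 1 in every library and 49 in only 1 library. Summed over members, the level was 966 TPM in the control, 962 in the library labelled Tut1 KO, 934 in Trp53 KO and 1065 in the library labelled double KO, which was 0.0934% to 0.107% of all TPM. The 10 leading members made up 32.0% to 36.6% of that sum. Of the 180 entries, 117 carried a Gm symbol and no functional name. snoRNAs were therefore placed in a class by symbol, by their closest named snoRNA, or by box letters. This gave 65 C/D box, 57 H/ACA box and 11 unclassified snoRNA genes.

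The 65 C/D box snoRNAs summed to 525 TPM in the control, 500.1 in the library labelled Tut1 KO, 479 in Trp53 KO and 566 in the library labelled double KO. H/ACA box snoRNAs, 57 in number, summed to 333, 377, 359.8 and 393 TPM in the same order. The 11 unclassified snoRNAs summed to 35.7, 34.7, 34.9 and 53.1 TPM. In each of these snoRNA classes the library labelled double KO was the highest, by the widest ratio over Trp53 KO, 1.52, for the unclassified. The 10 genes annotated as scaRNA summed to 21.2 TPM in the control and to 14.7, 12.3 and 12.4 in the libraries labelled Tut1 KO, Trp53 KO and double KO. Scarna9, a scaRNA by its symbol, is annotated as a snoRNA and was counted with the C/D box snoRNAs. It measured 4.72, 1.87, 3.25 and 2.28 TPM in the same order. snRNAs summed to 50.8 TPM in the control and 48.1 in Trp53 KO, above the 35.0 and 39.8 of the libraries labelled Tut1 KO and double KO. The ratio of the snRNA sums was 0.689 for the library labelled Tut1 KO over control and 0.828 for the library labelled double KO over Trp53 KO. Without the 5 leading snRNA members, the other 32 summed to 27.6, 27.3, 30.3 and 29.4 TPM.

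**Figure D1:**
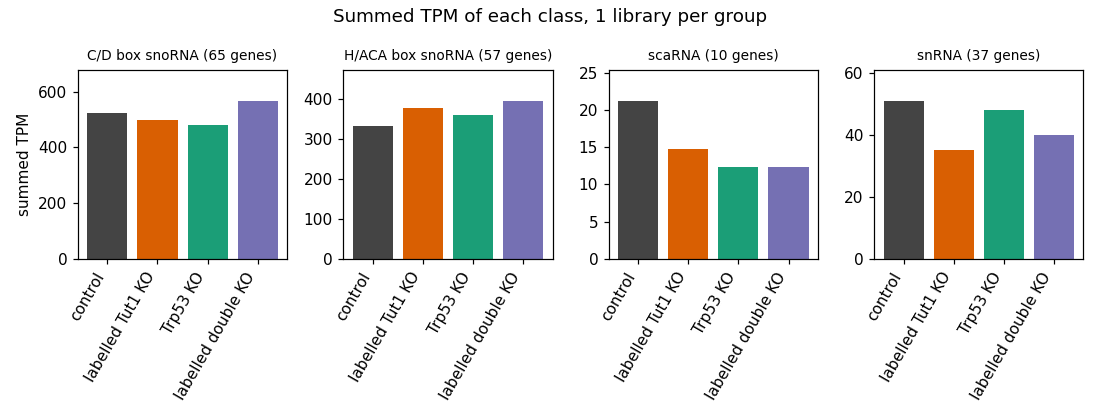
Summed TPM (y axis, from 0, a separate scale per panel) of the members of each class in the 4 libraries, 1 bar per library with no error bar since each group had 1 library. C/D box snoRNAs sum to 479 to 566 TPM and snRNAs to 35.0 to 50.8, with both libraries labelled as Tut1 knockouts lowest for snRNA.

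The named spliceosomal snRNA genes (Rnu symbols) were not among the members, although Gm25279, the U4 reference used here, and Gm23849, an exact copy of Rnu2-10, were. Rnu6, Rnu11, Rnu12, Rnu1b1 and Rnu1b2 were at 0 in all 4 libraries. Rnu2-10 reached 0.581 TPM, Rnu1a1 0.329 and Rnu5g, of the U5 family, 0.912 in the library labelled Tut1 KO. Rnu7, the snRNA of the histone pre-mRNA processing complex, stayed at 0.143 to 0.198. To find copies under other symbols, each listed snRNA sequence was matched to these genes and to Gm25279, which the table describes as U4. Of 1383 snRNA entries with a sequence, 955 were closest to U6, 209 to U1, 61 to U7, 54 to U2, 46 to U4, 11 to U5, 6 to U12 and 5 to U11, and 36 had no match. Many of these are pseudogene-like copies, and the match does not show that an entry makes a functional snRNA.

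U6-like entries made up 22 of the 37 snRNA members. Of the 955 U6-like entries, 141 (14.8%) were above 0 in some library. The 43 entries with exactly the sequence of Rnu6, Rnu6 itself included, held no member, and 3 of them were above 0. For entries in which every base of Rnu6 was matched, 46 in number, the highest TPM in any library was 0.396. The share of entries above 0 was 6.52% in this group, 10.6% where 95% to under 100% of the Rnu6 bases were identical, 14.2% from 85% to under 95%, 16.7% from 70% to under 85%, and 16.8% below 70%. The U6-like members shared 40.2% to 99.1% of the Rnu6 bases (median 81.3%, against 79.4% over all U6-like entries). The members nearest to Rnu6 were Gm25245, at 99.1%, and Gm26180, at 97.2%. Reads that match several identical copies cannot be assigned to 1 of them, and how the authors treated such reads is not given in the sources used here.

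**Figure D2:**
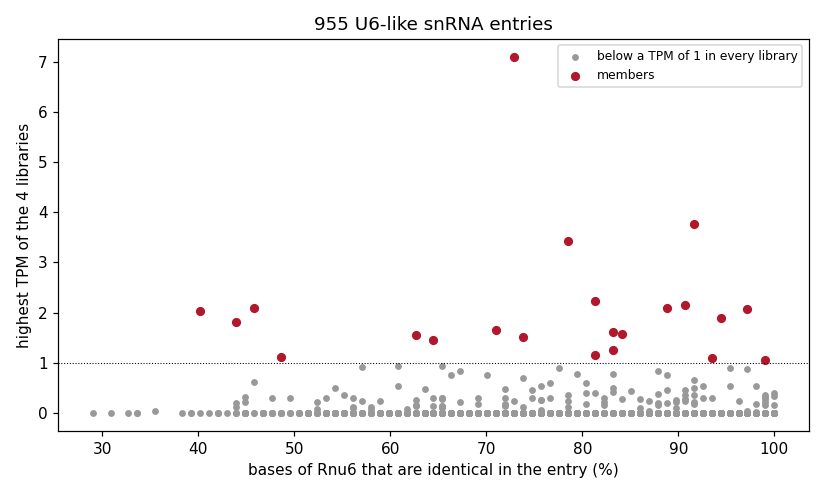
Each point is 1 of 955 U6-like snRNA entries: the share of Rnu6 bases that are identical in it (x axis, %) against its highest TPM in the 4 libraries (y axis). The 22 members (red) spread from 40.2% to 99.1%, and the entries at 100% all lie below 0.4 TPM.

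Of the U6-like members, 14 lay in no annotated host gene on their strand and 8 in an intron, with none in a host exon. The highest was Gm22208, on chromosome 15 outside any host, with 7.10 TPM in the control, 3.47 in the library labelled Tut1 KO, 2.75 in Trp53 KO and 3.81 in the library labelled double KO. The control stood above the other 3 libraries. Gm22753 measured 3.76, 0.301, 3.55 and 1.93 TPM in the same order, lowest in the library labelled Tut1 KO. Gm25047, on the X chromosome, measured 3.42, 0.849, 2.41 and 1.64 TPM, again lowest in that library. Gm23966, at 1.90, 1.85, 1.16 and 1.35 TPM, and Gm22208 were the U6-like members above 1 TPM in all 4 libraries.

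The remaining 18 U6-like members had a highest TPM of 1.05 to 2.23. In the control the highest of their 4 values was found for Gm25596 (2.09 TPM), Gm24226 (1.81), Gm22215 (1.55), Gm23318 (1.46) and Gm23543 (1.13). Trp53 KO held the highest value of Gm25328 (2.14), Gm25982 (2.10), Gm26180 (2.07), Gm23341 (2.03), Gm22079 (1.65), Gm23864 (1.62), Gm23058 (1.57), Gm25600 (1.52), Gm22573 (1.15) and Gm23645 (1.09). The library labelled Tut1 KO held that of Gm22107 (2.23) and Gm25245 (1.05), and the library labelled double KO that of Gm23851 (1.25). No library therefore held the highest value of all U6-like members, and 5 of the 22 were at 0 in the library labelled Tut1 KO, 4 in Trp53 KO, 2 in the control and 1 in the library labelled double KO.

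Summed over the 22 members, the U6-like level was 30.9 TPM in the control, 19.3 in the library labelled Tut1 KO, 28.0 in Trp53 KO and 22.5 in the library labelled double KO. Summed over the 933 U6-like entries below the limit it was 17.0, 10.97, 15.2 and 16.2 TPM. On log2(TPM + 1), 6 of 22 members differed by at least 1 (a 2-fold difference of TPM + 1, the limit used throughout) between the library labelled Tut1 KO and the control, where 4.59% of all 15095 genes with at least 1 TPM in some library did. Of these 6, Gm22753 (difference -1.87), Gm25596 (-1.63), Gm22215 (-1.35), Gm25047 (-1.26) and Gm23543 (-1.09) were lower and Gm25245 (1.04) was higher in the library labelled Tut1 KO. Between the library labelled double KO and Trp53 KO, 4 of 22 passed the limit, against 3.74% of all genes: Gm26180 (-1.62), Gm25600 (-1.23) and, just past the limit, Gm23864 were lower and Gm25596 (1.07) was higher in the library labelled double KO. Of the 22, 3 were higher and 4 lower in both of these comparisons, by any amount, and 14 went opposite ways. Between Trp53 KO and control 9 of 22 passed the limit, 5 higher and 4 lower, beside 4.27% of all genes. For the library labelled double KO 2 of 22 passed it against the control, beside 4.1%, and 2 against the library labelled Tut1 KO, beside 4.49%. With a pseudocount of 5 in place of 1, none of the 22 passed the limit in any of the 5 comparisons.

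The other snRNA members were 10 U1-like, 2 U2-like, 1 U4, 1 U7-like and 1 unmatched entry. Gm25184, which the table describes as U1, measured 5.72 TPM in the control, 1.52 in the library labelled Tut1 KO, 4.87 in Trp53 KO and 1.24 in the library labelled double KO. Both libraries labelled as Tut1 knockouts were below the other pair, with differences of -1.42 against control and -1.39 against Trp53 KO. It was the one member below the limit in both comparisons. Only 54.9% of the bases of Rnu1a1 were identical in it, and it lies at chr2:181512550-181512712 in an exon of a retained-intron transcript of Tpd52l2, whose level was 29.2, 31.1, 35.0 and 44.3 TPM in the order used above. Its sequence is printed since no other snRNA entry passed the limit the same way in both.
Gm25184: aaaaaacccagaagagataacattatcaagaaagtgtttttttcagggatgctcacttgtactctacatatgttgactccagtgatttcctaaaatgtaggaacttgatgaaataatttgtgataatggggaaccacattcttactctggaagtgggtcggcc

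Gm27343, the U7-like member, measured 3.19, 1.60, 4.21 and 1.85 TPM in the control, the library labelled Tut1 KO, Trp53 KO and the library labelled double KO. Gm23849 has exactly the sequence of Rnu2-10, the U2 gene, and measured 1.56, 0.477, 1.28 and 1.36 TPM in that order. The U4 entry Gm25279 measured 1.39, 1.22, 0.159 and 0.465. Gm26244 and Gm22513 each shared 99.4% of the bases of Rnu1a1, and reached 1.01 TPM in the library labelled Tut1 KO and 1.79 in Trp53 KO. These near-identical copies are uncertain, for the reason given for U6.

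Of the 5 C/D box snoRNAs with the highest mean TPM, 4 lie within Gas5, a non-coding host gene in which most introns hold a snoRNA. Gm50452 (chr1:161037356-161037439) measured 52.7 TPM in the control, 50.9 in the library labelled Tut1 KO, 39.2 in Trp53 KO and 59.5 in the library labelled double KO. Gm22357 (chr1:161036057-161036139) measured 55.5, 18.1, 36.1 and 62.7 TPM, with the library labelled Tut1 KO apart from the rest. Snord80 (chr1:161037604-161037680), at 32.4, 26.1, 28.6 and 35.3 TPM, and Gm25789 (chr1:161038308-161038383), at 25.8, 27.5, 24.9 and 26.1, were nearly level. All 4 lie in exons of retained-intron transcripts of Gas5, so their TPM and that of the host, at 737, 783, 853 and 734, can draw on the same reads. The difference of Gm22357 in the library labelled Tut1 KO against control was -1.56, while that of Gas5 was 0.09.

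The other one, Snord104 (chr11:106500993-106501062), in no annotated host, measured 27.7 TPM in the control, 51.6 in the library labelled Tut1 KO, 23.1 in Trp53 KO and 26.8 in the library labelled double KO. It was highest in the library labelled Tut1 KO, and the other libraries lay close together. Rpl13a, a ribosomal protein gene, held 3 intronic members, Snord35a, Snord34 and Snord32a. Snord35a measured 13.6, 23.2, 13.3 and 23.5 TPM and Snord34 12.6, 19.5, 11.9 and 20.4, each higher in the libraries labelled Tut1 KO and double KO than in the other pair. Snord32a was flatter, at 12.7, 14.4, 13.8 and 16.9 TPM. None of these Rpl13a members passed the limit in a Tut1 comparison, and Rpl13a itself measured 2055, 2279, 2644 and 2178 TPM.

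Among H/ACA box snoRNAs, Gm22579 (chr9:15316676-15316808) had the highest mean over libraries, with 35.7 TPM in the control and 43.1, 42.3 and 43.6 in the libraries labelled Tut1 KO, Trp53 KO and double KO. It lies in an exon of a retained-intron transcript of Taf1d, a subunit of the RNA polymerase I selectivity factor, which measured only 59.9, 52.4, 70.8 and 68.8 TPM. Snora68 measured 24.3, 42.6, 39.9 and 48.7 TPM, with the control lowest and the last value the highest of any H/ACA box snoRNA. Gm24029 in Eif4a1, a translation initiation helicase gene, measured 22.8, 34.7, 25.1 and 30.3. Snora57, in no host, was nearly level at 27.0, 31.5, 24.6 and 27.4. Snora31, intronic in Tpt1, measured 12.3, 25.9, 14.7 and 21.9 TPM and was 1.02 higher on log2(TPM + 1) in the library labelled Tut1 KO than in the control, against 0.04 for Tpt1.

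**Figure D3:**
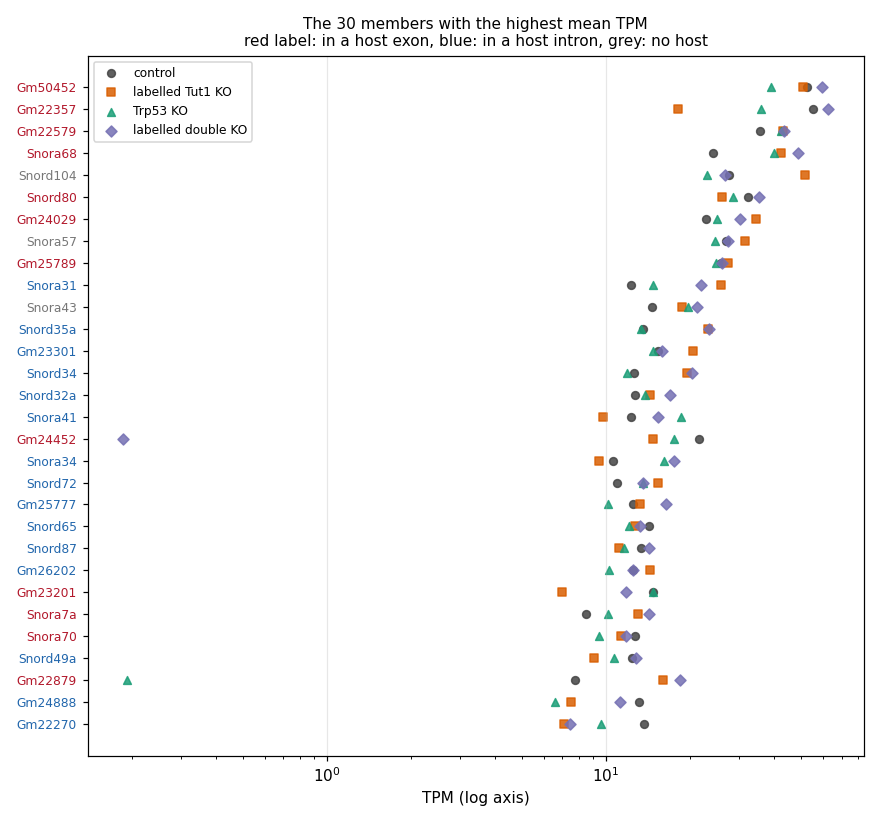
TPM (x axis, log scale) of the 30 members with the highest mean, 1 marker per library, with label colours for a host exon (red), a host intron (blue) or no host (grey). Most rows hold all 4 libraries within a few fold, while Gm24452 in the library labelled double KO (0.186 TPM) and Gm22879 in Trp53 KO (0.193 TPM) lie far to the left.

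The 5 leading unclassified snoRNAs were Gm24201, AF357399, Gm25894, Gm24067 and Gm26447, with highest values of 5.15 to 10.4 TPM, all in the library labelled double KO. Both Gm24201 and Gm26447 lie in exons of Eif4a2. scaRNA members were low. Gm25492, in an intron of Bud23, measured 3.18 TPM in the control, 5.91 in the library labelled Tut1 KO, 1.66 in Trp53 KO and 4.48 in the library labelled double KO. Gm22009, in Kpna4, measured 4.78, 1.91, 3.44 and 1.69 TPM, the libraries labelled as Tut1 knockouts being the lower pair. Gm23119 measured 1.89, 1.91, 1.91 and 2.72 TPM, highest in the library labelled double KO, and Gm23751 1.43, 0.696, 0.942 and 1.51. Gm26413, in Fbf1, measured 6.15 TPM in the control, 0.515 in the library labelled Tut1 KO and 0 in the other pair. The scaRNA sum above includes it.

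Between the library labelled Tut1 KO and the control, 33 of 180 members passed the limit, 12 higher and 21 lower, where 4.59% of all genes did (1.84% higher, 2.76% lower). With a pseudocount of 5 the count fell to 6, 3 higher and 3 lower (3.33%, beside 1.93% of all genes), and among the 43 members with at least 10 TPM in some library it was 5, 3 higher and 2 lower. By class these were 13 of 65 C/D box snoRNAs, 10 of 57 H/ACA box snoRNAs, 0 of 11 unclassified snoRNAs, 1 of 10 scaRNAs and 9 of 37 snRNAs. The median difference was -0.04 over members and -0.09 over all genes. Between the library labelled double KO and Trp53 KO, 27 of 180 passed it, 17 higher and 10 lower, with 3.74% for all genes (1.83% higher, 1.91% lower) and medians of 0.12 and 0.04. With a pseudocount of 5 the count fell to 5 and the balance turned to 1 higher and 4 lower, and it was 2 higher and 4 lower among members with at least 10 TPM. For Trp53 KO against control the count was 33 of 180, 15 higher and 18 lower, where 4.27% of all genes passed (1.98% higher, 2.29% lower). For the library labelled double KO against control it was 29, 15 higher and 14 lower, beside 4.1% of all genes (1.85% higher, 2.25% lower). Against the library labelled Tut1 KO it was 20, 14 higher and 6 lower, beside 4.49% (2.35% higher, 2.14% lower), and 11 higher and 10 lower once centred on protein-coding genes. With a pseudocount of 5 these last 3 counts fell to 6, 3 and 5. These comparisons share libraries and are not independent.

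The share of members past the limit was also read by level and by gene length. In the comparison of the library labelled Tut1 KO with control it was 14 of 53 members with a mean TPM under 1 (26.4%, against 8.42% of all genes in that range), 8 of 54 from 1 to under 3 (14.8% against 5.47%), 9 of 45 from 3 to under 10 (20.0% against 6.45%) and 2 of 28 at 10 or more (7.14% against 3.25%). For the library labelled double KO against Trp53 KO the shares in these 4 ranges were 24.5% against 8.96%, 3.70% against 4.29%, 22.2% against 4.99% and 7.14% against 2.56%, so that from 1 to under 3 TPM members lay below all genes. Members are short, from 35 to 343 bases with a median of 112.5, and TPM divides by length. Among members under 100 bases 17.6% passed the limit and among other genes of that length 14.6%. From 100 to under 150 bases the shares were 17.6% and 13.4%, and from 150 to under 400 bases 23.8% and 15.5%. In the other comparisons the order varied. For the library labelled double KO against Trp53 KO, 14.7% of members under 100 bases passed and 17.7% of other genes. For the library labelled double KO against control, 8.79% of members from 100 to under 150 bases passed beside 19.4% of other genes, and 33.3% beside 13.7% from 150 to under 400 bases, a range that holds 21 members. Against the library labelled Tut1 KO the shares in that last range were 0% and 14.2%. Whether length or level accounts for the share was not tested.

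Among members with at least 10 TPM in 1 of the libraries compared, 35 in number, Snora33 (3.84), Snord83b (1.07) and Snora31 (1.02) were furthest above the control in the library labelled Tut1 KO, and Gm24134 (-3.87), Gm22357 (-1.56) and Gm23201 (-0.98) furthest below. Snord83b, in an intron of the ribosomal protein gene Rpl3, measured 4.38 TPM in the control, 10.3 in the library labelled Tut1 KO, 9.80 in Trp53 KO and 10.9 in the library labelled double KO. Here the control was apart and the 3 Cre-treated libraries were alike. Gm23201, in Zfas1, measured 14.8, 6.99, 14.8 and 11.9 TPM. For the library labelled double KO against Trp53 KO the order, among 40 such members, was Gm22879 (4.03), Snord58b (1.09) and Gm22357 (0.78) above, and Snord100 (-4.88), Gm24452 (-3.97) and Snora33 (-3.97) below. Gm22357 was thus below the control in the library labelled Tut1 KO and above Trp53 KO in the library labelled double KO.

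Only Gm22980 was higher by the limit in both Tut1 comparisons. This C/D box snoRNA measured 1.28 TPM in the control, 6.45 in the library labelled Tut1 KO, 1.96 in Trp53 KO and 5.58 in the library labelled double KO. The libraries labelled as Tut1 knockouts were the higher pair, with differences of 1.71 and 1.15. Over all genes, 29 of 15095 were higher and 40 lower in both comparisons, and of the 180 members 1 was higher and 1, Gm25184, lower.

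In Trp53 KO against control, among the 36 members with at least 10 TPM in either library, Snord100 (4.83), Snora33 (3.88) and Snora16a (3.48) were furthest above and Gm24494 (-1.39), Gm24888 (-0.89) and Gm22357 (-0.60) furthest below. Gm24494, in an intron of Rabggtb, measured 11.1 TPM in the control and 3.64 in Trp53 KO, and Gm24888, in Rpl27a, 13.1 and 6.61.

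The position of members in host genes was then compared with their levels. Of the 180, 43 shared an exon with a larger gene on the same strand, 102 lay in an intron of one, and 35 had no host. The exon-sharing members lay in 31 hosts, and for 33 of the 43 the exons with the largest overlap belonged only to transcripts annotated as retained introns. Their median mean level was 5.92 TPM, against 1.76 for intronic members and 0.980 for those with no host. Exon-sharing members summed to 431, 410.2, 439.5 and 473 TPM in the control and the libraries labelled Tut1 KO, Trp53 KO and double KO, and intronic members to 409, 413, 379.8 and 466. The median mean TPM of the hosts was 312 for exon-sharing and 62.7 for intronic members.

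Differences of members and hosts were not alike in size. Between the library labelled Tut1 KO and the control, the median absolute difference was 0.57 for exon-sharing members and 0.19 for their hosts, and 0.44 and 0.20 for intronic members and theirs. None of the 31 hosts of exon-sharing members passed the limit in any of the 5 comparisons, while 12 of the 43 members (27.9%) did in this one, beside 13.7% of intronic members, 20.0% of those with no host and 4.59% of all genes. Between the library labelled double KO and Trp53 KO 10 of the 43 (23.3%) did, beside 10.8%, 17.1% and 3.74%. Among all genes with a mean of at least 10 TPM, 2.56% to 3.25% passed the limit per comparison. The 31 hosts are therefore too few to read a count of 0. Of the 81 hosts of intronic members, 1 to 3 passed it per comparison. Spearman's rho between member and host differences, across genes, was -0.01 over 43 exon-sharing and 0.09 over 102 intronic members in the first comparison, and 0.14 and -0.19 in the second. Members of 1 host and both values of a point share libraries, so these are descriptions.

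**Figure D4:**
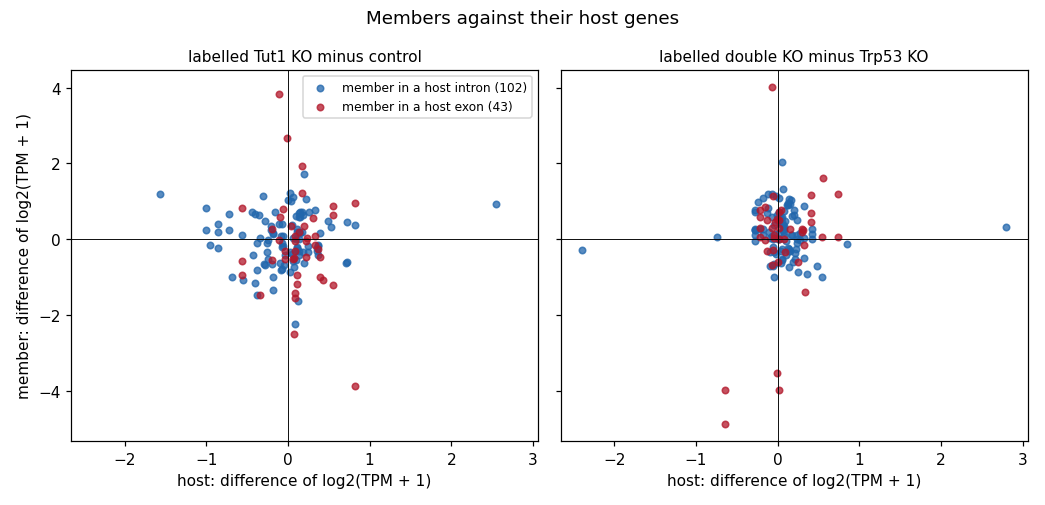
Difference of log2(TPM + 1) of a host gene (x axis) and of the member inside it (y axis) for the library labelled Tut1 KO minus control (left) and the library labelled double KO minus Trp53 KO (right), 1 point per member in a host exon (red, 43) or intron (blue, 102). Points spread vertically and most hosts lie near 0; exon-sharing members reach 3.84 and -3.87 at left and 4.03 and -4.88 at right.

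Several members were at several TPM in some libraries and near 0 in others. By a limit chosen after the values were seen, at least 5 TPM in a library and under 0.5 in another, there were 9 of 70 members that reached 5 TPM. Of these, 8 were among the 30 exon-sharing members that reached 5 TPM, 1 among 34 intronic members and 0 among 6 with no host. The share of all genes that meet this limit was not counted, so whether such a spread is particular to members cannot be told. Snord100 and Snora33 both lie in retained-intron exons of Rps12, a ribosomal protein gene. Snord100 (chr10:23785750-23785823) measured 0.269, 0.247, 35.2 and 0.233 TPM, high in Trp53 KO alone and under 0.5 TPM in the others. Snora33 (chr10:23785347-23785475) measured 0.320, 17.9, 18.4 and 0.240, high in Trp53 KO and in the library labelled Tut1 KO. Rps12 measured 872, 806, 766 and 489 TPM and had no such split.

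Gm22879 (chr2:26912218-26912291) and Gm24134 (chr2:26912530-26912600) lie in exons of Rpl7a transcripts and share the 3′ stretch gagctttttaaccCTGAg, seen above in both, with capitals for the D box. Gm22879 measured 7.79 TPM in the control, 16.0 in the library labelled Tut1 KO, 0.193 in Trp53 KO and 18.4 in the library labelled double KO. Gm24134 measured 14.2, 0.0374, 13.1 and 7.77 TPM. The 2 neighbours were thus near 0 in different libraries. Rpl7a, at 1019, 1804, 954 and 912 TPM, was highest in the library where Gm24134 was near 0. With the intronic Gm23969 the 3 members of Rpl7a summed to 27.1, 23.0, 19.6 and 33.0 TPM, a narrower range than either snoRNA alone. A sum of values that are low in different libraries is narrower by construction. The members of Rps12, Snora33 and Snord100, summed to 0.588, 18.2, 53.6 and 0.473 TPM, which was not a narrow range.

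Gm24452 (chr19:8724531-8724602), in Snhg1, measured 21.6, 14.7 and 17.6 TPM in the control, the library labelled Tut1 KO and Trp53 KO, and 0.186 in the library labelled double KO. Snhg1, a non-coding host of many snoRNAs, stayed at 151 to 159 TPM. Snora16a, in Snhg12, was at 11.8 TPM in Trp53 KO and at 0.111 to 0.146 elsewhere, and Snord50b, in Snhg5, at 6.36 TPM in the library labelled Tut1 KO and 0.109 to 0.155 elsewhere. Snord57, in Nop56, a core protein of C/D box particles, was at 5.13 TPM in the control and at most 0.0896 elsewhere, while Nop56 measured 147 to 159 TPM. The part of shared reads in these values was not tested.

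**Figure D5:**
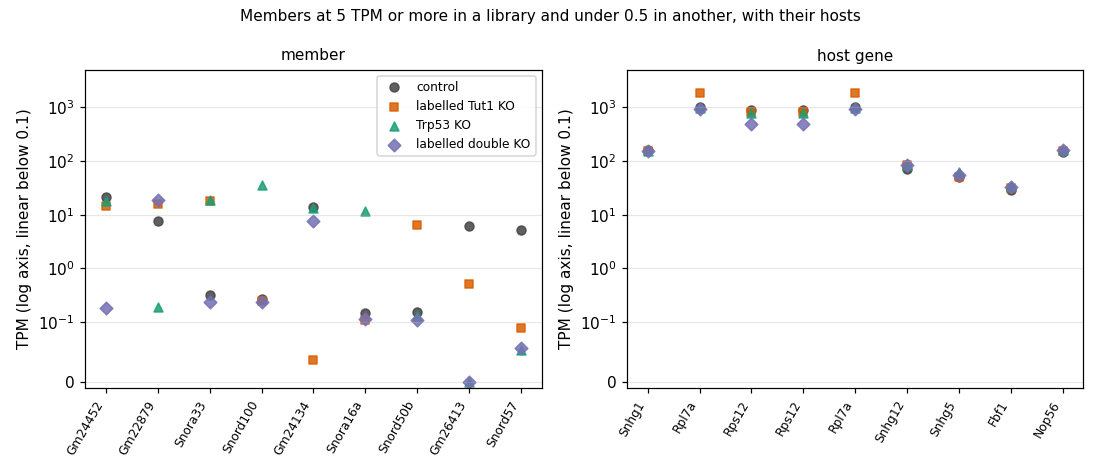
TPM (y axis, log scale, linear below 0.1) of the 9 members at 5 TPM or more in a library and under 0.5 in another (left) and of their host genes (right), 1 marker per library. Members split between several TPM and near 0, and the libraries that are near 0 differ from member to member, while the values of each host differ by less than 2-fold.

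Proteins that make or bind these RNAs were read beside them. Of 61 snRNA biogenesis genes, each at 1 TPM or more in some library, 2 were higher and 0 lower by the limit in the library labelled Tut1 KO than in the control, beside 4.59% of all genes in either direction: Tut1 itself (difference 1.23) and Bdp1 (1.61), a subunit of the polymerase III factor TFIIIB, which measured 0.893, 4.76, 5.91 and 7.22 TPM in the order used above. Between the library labelled double KO and Trp53 KO, 2 were higher and 0 lower, beside 3.74%, namely Gemin7 (1.57), of the SMN complex, and Prpf3 (1.06), of the U4/U6 particle. Gemin7 measured 47.1, 44.3, 14.8 and 46.1 TPM, so that Trp53 KO was the library apart. Usb1, which trims the U6 tail, measured 24.4, 22.5, 30.0 and 23.3 TPM. The median difference of the list was 0.03 in the first comparison and 0.12 in the second, against -0.09 and 0.04 over all genes. A list of 25 genes held snoRNP proteins and assembly factors, and also RNA-processing genes such as Exosc10, Dis3, Parn, Tent4b and Nob1. Of these 25, 0 passed the limit in any comparison, where 3.74% to 4.59% of all genes did. A list of this size is too short to read a count of 0 against that share. Fbl, the methyltransferase of C/D box particles, measured 310, 351, 344 and 364 TPM, and Dkc1, the pseudouridine synthase of H/ACA box particles, 62.0, 47.1, 57.9 and 61.7.

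Of 12 other RNAs listed for the lack of a long poly(A) tail, 8 reached 1 TPM in some library and 5 were higher both in Trp53 KO and in the library labelled Tut1 KO than in each of the other pair: Rn7sk, Rn7s1, Rn7s2, Rmrp and Rpph1. Of all 15095 genes, 11.7% had this order. Rn7sk, the 7SK RNA, measured 4.86 TPM in the control, 11.5 in the library labelled Tut1 KO, 11.6 in Trp53 KO and 5.18 in the library labelled double KO. Rn7s1, of the signal recognition particle, measured 7.56, 18.6, 18.4 and 5.25, and Rmrp, the RNA of RNase MRP, 1.64, 2.94, 4.54 and 1.22. The other 3 that reached 1 TPM did not follow this split. The mitochondrial ribosomal RNAs mt-Rnr1 and mt-Rnr2 measured 743, 757, 839 and 789 TPM and 782, 525, 509 and 558 TPM, and Rny1, a Y RNA, 0, 0.346, 0.739 and 1.49. The split was that of Xist given above, and the U6-like sum (30.9, 19.3, 28.0 and 22.5 TPM) did not share it. Summed over 66 replication-dependent histone genes, whose mRNAs also lack a poly(A) tail, the level was 218 TPM in the control, 168 in the library labelled Tut1 KO, 245 in Trp53 KO and 182 in the library labelled double KO. These sums and the U6-like and snRNA sums were lower in both libraries labelled as Tut1 knockouts than in the other pair. The snRNA sum includes the U6-like one, and lacked this order without its 5 leading members (27.6, 27.3, 30.3 and 29.4 TPM). U6-like entries below the limit lacked it too (17.0, 10.97, 15.2 and 16.2 TPM). Among histone genes H2bc4 (50.7, 28.0, 66.5 and 34.9 TPM) had it and H4c9 (47.4, 56.3, 36.1 and 55.3) the reverse. The share of all genes with this order was not counted. Of 31 replication-dependent histone genes that reached 1 TPM in some library, 1 was lower by the limit in the library labelled Tut1 KO than in the control, beside 2.76% of all genes, and 2 in the library labelled double KO than in Trp53 KO, beside 1.91%. With so few genes these counts are not read against those shares. The part of poly(A) selection and of the amount of total RNA in the member levels was not tested, and fewer cells of a type and less RNA per cell cannot be told apart in these bulk libraries.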

How the data were processed

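RNA from 4 mouse neural cell cultures, 1 per group, was sequenced, and the authors deposited 1 table of TPM per gene, with symbols and gene types. The submitters' notes name Trimmomatic, HISAT2, StringTie and mm10, with no roles; the labels name a stranded mRNA ligation kit while the series text names long reads, and the counting settings are not given in the sources used here. TPM sums were 999874 to 999892 per library, so depth and counting error are unknown. All sample columns were used (0 unmapped).

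Members and gene lists were chosen with earlier results of these data known. Differences were taken on log2(TPM + 1), on the deposited scale, and called at 1; no test was possible with 1 library per group. Positions, hosts and sequences came from GENCODE M21 (GRCm38, the assembly mm10 names), by Ensembl ID (180 of 180 members). A member shared an exon if any base overlapped an exon of a larger gene on its strand; the host was the overlapping gene with the highest mean TPM. 14 members overlapped another small RNA entry, Snora43 and Gm26457 had 2 entries each, and 4 overlapped an exon on the opposite strand. Families and snoRNA classes came from blastn 2.17.0 (word size 7, e-value to 0.001, plus strand) and, for unmatched snoRNAs, box letters (C box in the first 22 bases and D box in the last 16, up to 150 bases; ACA near the end, from 100 bases). Some host genes and sequences are not reported here. The code was tested on simulated data.

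Named genes were the U6-like members, the 5 highest members per class, the 3 largest differences each way in 3 comparisons among members with at least 10 TPM, members past the limit the same way in both Tut1 comparisons, their hosts, the genes at the edge of the rule, Tut1, Trp53 and list genes past the limit or at the ends of their range; others were named after their values were seen. Alternatives were other pseudocounts, level limits, scalings, a 1.5-fold limit and members with no shared exon.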

Additional observations from a re-analysis of the deposited data

Results flagged for a closer look

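Snora33 went opposite ways past the limit in the comparisons that differ by the Tut1 label: 3.84 in the library labelled Tut1 KO minus control and -3.97 in the library labelled double KO minus Trp53 KO, which is a difference of -7.81 between them on log2(TPM + 1). Gm25596, a U6-like entry, did so with -1.63 and 1.07, a difference of 2.69, at levels of at most 2.09 TPM. Both divided the libraries as Xist did: Snora33 was high, and Gm25596 at 0, in those labelled Tut1 KO and Trp53 KO. The Tut1 comparisons cross that split in opposite directions, so the Tut1 label and the sex of the cells cannot be told apart here. Each group had 1 library, so neither difference was tested. Over all genes 86 of 15095 went opposite ways past the limit.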

How the results depend on the processing

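No paired analysis was possible because each group had 1 library. Depth is unknown, so counting error could not be given, and at low TPM the choice of pseudocount set most calls. For Tut1 KO against control, double KO against Trp53 KO, Trp53 KO against control, and double KO against control and against Tut1 KO, in that order and by label, the counts of 33, 27, 33, 29 and 20 members past the limit became 71, 60, 60, 64 and 63 with a pseudocount of 0.1 (7.29% to 8.82% of all genes), and 6, 5, 6, 3 and 5 with 5. The latter are 1.67% to 3.33% of members beside 1.64% to 1.93% of all genes, and for double KO against control 1.67% beside 1.64%, so that the excess of members was nearly gone there. They were 5, 6, 6, 3 and 5 of the 43 members with at least 10 TPM (3.22% to 4.20% of all such genes), 82, 71, 68, 69 and 57 at a 1.5-fold limit (10.6% to 14.9% of all genes), and 19, 15, 20, 15 and 7 of the 125 members that overlap no exon of any other gene on their strand, small RNA entries included (3.74% to 4.59% of all genes). For double KO against Tut1 KO this is 5.60% of members beside 4.49%. The U6-like counts of 6, 4, 9, 2 and 2 became 14, 11, 15, 11 and 13 with a pseudocount of 0.1 and 0 in all 5 with 5. Total counts stayed within 1.5 times the reported ones with no level minimum, with centring on 7244 protein-coding genes (shifts of -0.09 to 0.08), with quantile normalization and with TPM rescaled without members, which moved each class sum by at most 0.107%. The split of calls moved too. With a pseudocount of 5 it turned from 17 higher and 10 lower to 1 and 4 for double KO against Trp53 KO, from 15 and 14 to 0 and 3 for double KO against control, and from 14 and 6 to 2 and 3 for double KO against Tut1 KO. Among members with at least 10 TPM it turned from 12 and 21 to 3 and 2 for Tut1 KO against control, from 15 and 18 to 4 and 2 for Trp53 KO against control, and from 17 and 10 to 2 and 4 for double KO against Trp53 KO. Centring gave 11 higher and 10 lower for double KO against Tut1 KO. The cause was not tested.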
